A study of Bos taurus with 16 samples.

Results

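Genes that were high in bovine endometrium 5 days after insemination and low on days 10 and 14 are described here, 278 of the 27607 gene IDs in the count tables. A gene was taken when its median CPM (reads per 1000000 reads counted in genes) on day 5 was at least 5 and its day 10 and day 14 values were each at most 0.5 times its day 5 value. A day value is the median CPM of the 4 libraries of that day plus 0.5. Its day 18 value had to be under 2 times its day 5 value, and every day 10 and day 14 library had to lie below at least 3 of the 4 day 5 libraries. Levels of days 5, 10 and 14 therefore chose the genes, and their fall between these days is a description and not a finding. Day 18 entered only as an upper limit, which removed 0 genes that met the other conditions.

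Each of the 16 libraries was made from an endometrial biopsy of a Holstein virgin heifer, with 4 animals on each of days 5, 10, 14 and 18. All groups shared 1 breed and 1 treatment: heifers of at least 7 months and 340 kg had their cycles synchronised with a GnRH analog, a vaginal progesterone device and 2 doses of the prostaglandin analog cloprostenol, and were then inseminated with Holstein semen. Animals were assigned to days at random, per the labels, and each gave 1 library, so the groups differ in day and not in treatment. Whether an individual animal carried an embryo is not stated for it, day 0 was not analysed here, and no non-inseminated group was analysed here.

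The endometrium lines the uterus and is built of a luminal epithelium, glands, stroma, vessels and resident immune cells. After ovulation the corpus luteum forms and progesterone in the blood climbs, and the tissue passes from an oestrogen-primed, growing state to a secretory one that feeds the embryo before it attaches. Continued progesterone is known to remove its own receptor from the epithelium, after which many actions of the hormone there pass through the stroma. The count tables name genes by Ensembl ID alone and 0 of these IDs match the reference table, so the members cannot be tied to symbols, functions, positions or sequences. For the same reason the labelled tissue could not be checked against its marker genes. In a bulk biopsy, fewer cells of a type and less RNA per cell cannot be told apart.

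Gene totals of the libraries ran from 18959090 to 24291006 reads. Across the 16331 genes tested, day 5 replicate 3 and day 18 replicate 2 had mean Pearson correlations with the other libraries of 0.870 and 0.868, while the remaining 14 libraries were all at 0.925 or above. Day 18 replicate 3 had an ordinary mean of 0.936, and its highest correlation was with a library of another day, as in 8 of the 16 libraries. That highest correlation, 0.9824 with day 5 replicate 4, was the highest of all 120 pairs of libraries. With another day 18 library it reached at most 0.924. Day 18 replicate 3 is set beside the 2 libraries with low means for its closeness to day 5. Its mean correlation was 0.977 with day 5 replicates 1, 2 and 4, which were at 0.967 to 0.977 among themselves, and 0.900 with the other day 18 libraries. These 3 libraries are called the ones that stand apart, and results are given with and without them.

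All 278 genes had enough reads to be tested, with a median of 4295 reads per gene over the 16 libraries and at least 587. Their day 5 median CPM ran from 5.01 to 10256 with a median of 20.5. It was at least 100 CPM for 45 genes and under 10 CPM for 74. Of the 338 genes with the required level and ratios, 58 were left out only because the libraries of the days were not ordered as required. The 3 members closest to the limit had a larger day 10 or day 14 ratio of 0.495, 0.495 and 0.498. The 3 genes just outside it were at 0.5003, 0.501 and 0.502.

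The depth of the fall varied widely among members. The median day 10 value was 0.291 times the day 5 value, with quartiles at 0.171 and 0.407, and the median day 14 value was 0.232 times, with quartiles at 0.133 and 0.362. Both days were at most 0.25 times day 5 in 93 genes, at most 0.125 times in 30 and at most 0.0625 times in 6. Abundance on day 5 and depth of fall were unrelated as a description, with a Spearman rho of 0.01 across the 278 genes, which share the same libraries and are not independent. Together the members took 3.16% ± 0.31 (SD, n = 4) of all gene reads on day 5, 1.05% ± 0.29 on day 10 and 0.940% ± 0.431 on day 14. On day 18 they took 3.61% ± 3.95, with 9.38% in replicate 2 and 0.742% in replicate 1.

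By library, the median member lay near the day 5 value in day 5 replicates 1, 2 and 4, with log2 ratios of 0.16, 0.02 and -0.02. In day 5 replicate 3 it lay at -1.16. The 4 day 10 libraries were at -1.48, -1.48, -2.02 and -2.02 in the order of their replicate numbers. The 4 day 14 libraries were at -2.05, -1.72, -2.29 and -2.25. By the rule no library of days 10 and 14 can have a member above its day 5 value, so its absence there is no finding. On day 18 the libraries spread over the whole range, at -2.22, -0.87, -0.18 and -1.64 for replicates 1 to 4. The medians of the other 11657 genes with at least 5 CPM on day 5 stayed between -0.37 and 0.12 in all 16 libraries, with day 5 replicate 3 the lowest of them.

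**Figure D1:**
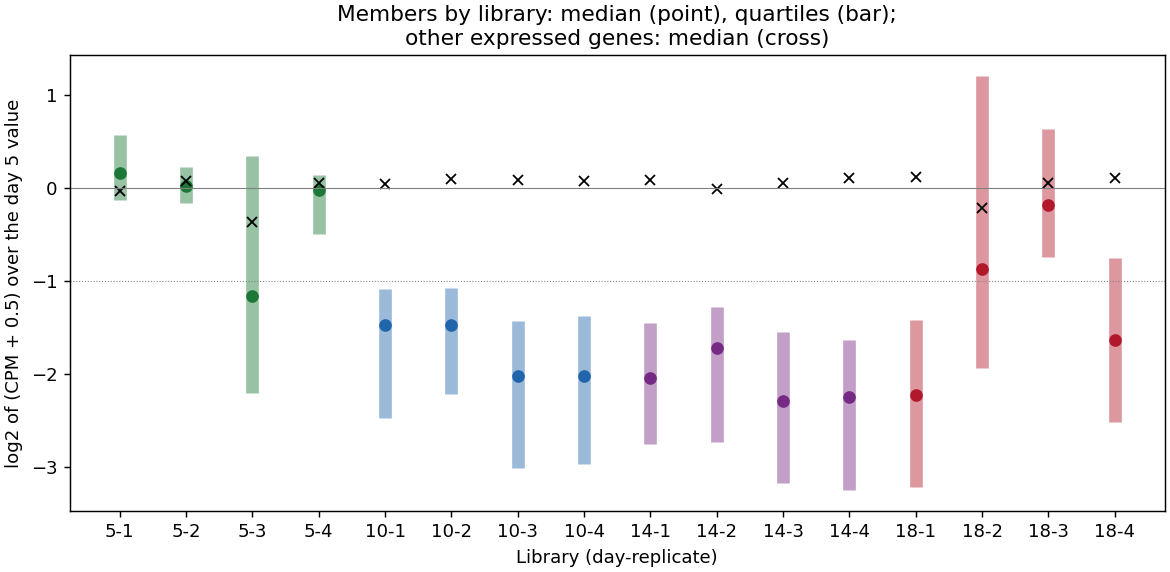
Log2 ratio of CPM plus 0.5 to the day 5 value, by library (day and replicate number): points are the median of the 278 members, bars their quartiles, and crosses the median of the other genes with at least 5 CPM on day 5. The day 10 and day 14 libraries sit between -1.48 and -2.29, while the 4 day 18 libraries run from -2.22 to -0.18.

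Day 5 itself was not uniform for these genes. In 79 of them all 4 day 5 libraries lay above all 8 libraries of days 10 and 14, and in the other 199 exactly 1 day 5 library did not. That library was replicate 3 in 148 genes, replicate 4 in 34, replicate 2 in 9 and replicate 1 in 8. The rule allows at most 1 such exception, so these counts describe the choice of genes. Day 5 replicates 1 to 4 lay above all 8 libraries in 97.1%, 96.8%, 46.8% and 87.8% of members. Among the other genes of at least 5 CPM the shares were 16.8%, 18.1%, 13.4% and 21.6%. The median SD of log2 CPM within day 5 was 1.11 for members and 0.39 for the other genes of at least 5 CPM. Within day 10 it was 0.54 against 0.22, within day 14 0.47 against 0.26, and within day 18 1.51 against 0.43. The rule itself admits 1 low library on day 5 and sets almost no limit on day 18.

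The 2 most abundant members showed different courses. ENSBTAG00000013103 was at 10249, 6832, 13004 and 10262 CPM in day 5 replicates 1 to 4, at 6593, 3986, 2501 and 2479 CPM on day 10, and at 2247, 9868, 2605 and 2331 CPM on day 14. On day 18 it was at 2069, 2672, 10999 and 1931 CPM. One day 14 library and one day 18 library reached the day 5 range, day 14 replicate 2 and day 18 replicate 3. The second, ENSBTAG00000001292, was at 807, 4643, 4587 and 1177 CPM on day 5, at 126 to 791 CPM on day 10 and at 166 to 363 CPM on day 14. In day 18 replicates 1 to 4 it was at 133, 43211, 441 and 4487 CPM, so replicate 2 stood above every other library, replicate 4 within the day 5 range and replicate 1 below all 4 day 14 libraries.

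The members with the deepest fall on both days were ENSBTAG00000009014 and ENSBTAG00000052405. ENSBTAG00000009014 was at 483, 382, 38.3 and 149 CPM on day 5, at 1.72 to 15.01 CPM on day 10 and at 1.41 to 5.48 CPM on day 14. Its day 18 libraries were at 1.47, 193, 169 and 19.5 CPM, and replicates 2 and 3 lay inside the day 5 range. ENSBTAG00000052405 went from 21.2, 17.5, 2.41 and 20.3 CPM on day 5 to at most 0.286 CPM on day 10 and 0.974 CPM on day 14, with 0 reads in day 14 replicate 4. On day 18 it was at 0.245, 38.2, 7.12 and 4.80 CPM. All 4 day 5 libraries of both genes lay above all 8 libraries of days 10 and 14, also in replicate 3, where both had their lowest day 5 value.

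At the 2 ends of the day 18 range, the courses parted by library. The highest day 18 values relative to day 5, 1.66 times each, belonged to ENSBTAG00000010837 and ENSBTAG00000008274. ENSBTAG00000010837 was at 1.13 to 9.89 CPM on day 5, at 0.947 to 2.90 CPM on day 10 and at 1.12 to 2.35 CPM on day 14, and in day 18 replicates 1 to 4 at 1.22, 98.5, 10.9 and 16.8 CPM. ENSBTAG00000008274 was at 6.58, 63.2, 24.8 and 0.590 CPM on day 5 and at 1.03, 360, 1.15 and 51.5 CPM on day 18. Replicate 2 was the highest of all 16 libraries for both. The lowest day 18 values belonged to ENSBTAG00000035171 and ENSBTAG00000055199, at 0.00629 and 0.00757 times day 5. ENSBTAG00000055199 was at 72.3, 79.2, 4.97 and 85.5 CPM on day 5, at 10.8, 55.3, 6.61 and 22.6 CPM on day 10 and at 0.288 to 2.40 CPM on day 14. On day 18 it was at 0.0489, 0, 70.0 and 0.105 CPM, so a single library, replicate 3, held nearly all of its day 18 reads. ENSBTAG00000035171 shared this form, at 153 CPM in day 18 replicate 3 and at most 1.79 CPM in the other 3.

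**Figure D2:**
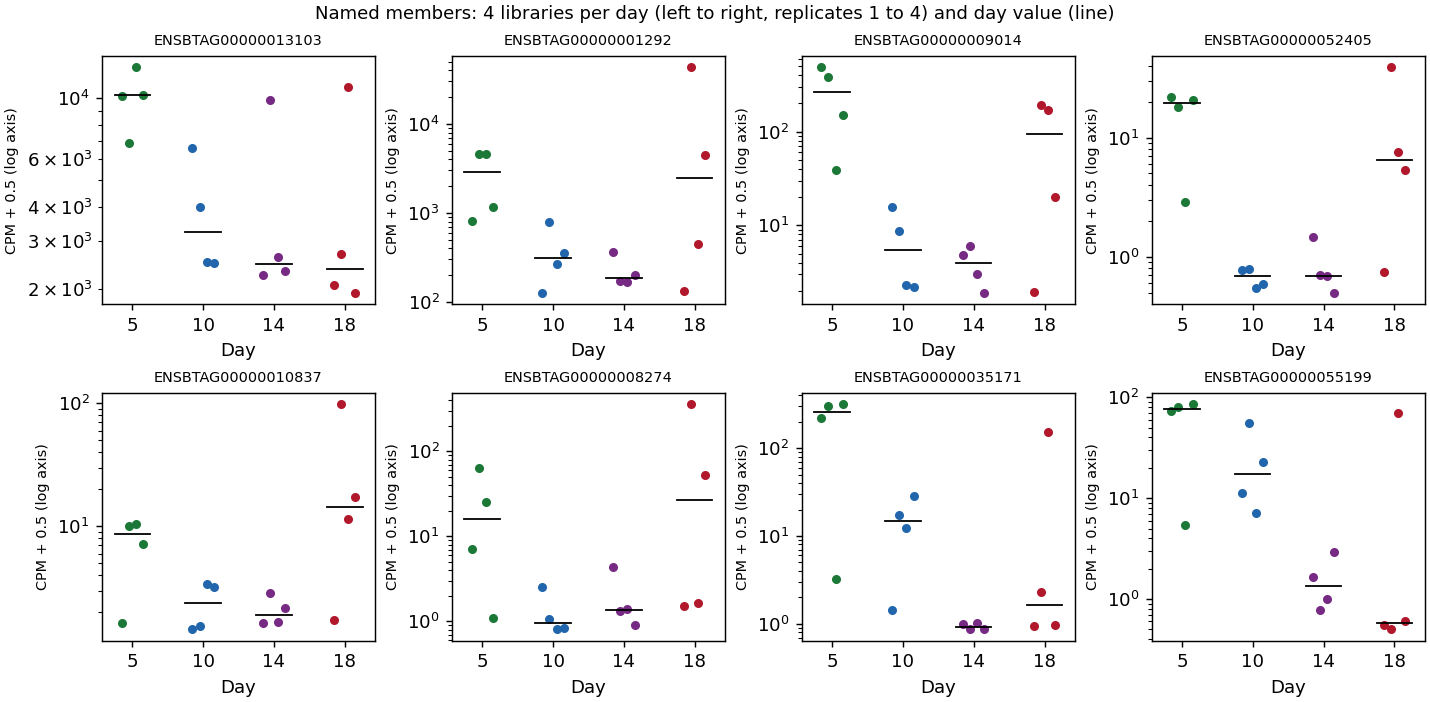
CPM plus 0.5 on a log axis for the 8 members named by abundance, depth of fall and day 18 value; points are the 4 libraries of a day, replicates 1 to 4 from left to right, and lines are day values. Day 18 replicate 2 is the highest library for ENSBTAG00000001292 at 43211 CPM, while for ENSBTAG00000055199 the only high day 18 library is replicate 3 at 70.0 CPM.

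Days 10 and 5 and days 14 and 5 are the contrasts the rule used, and their tests are given only to show how much of the choice a replicate test calls. For day 10 against day 5, edgeR's quasi-likelihood test with Benjamini-Hochberg adjustment over all genes called 3 members lower and 0 higher, where 0.0429% of all genes tested were called lower. These were ENSBTAG00000016819, ENSBTAG00000014498 and ENSBTAG00000019772, named because of their small number and after their values were seen. ENSBTAG00000019772 was at 22.1 to 67.9 CPM on day 5 and at 2.38 to 5.21 CPM on day 10, without overlap, and its log2 difference by edgeR was -4.05 ± 0.71 (SE) with an adjusted p of 0.0491. Replicates of these 2 days with the same number deviated weakly together, and edgeR with a replicate block called 0 members and 0% of all genes lower. For day 14 against day 5, edgeR called 44 members lower, against 1.12% of all genes tested, and 0 when any 1 day 14 library was left out. At an unadjusted p under 0.05 the counts of lower members were 216 for day 10 and 255 for day 14, where 11.2% and 12.9% of all genes were lower at that level. Without the 3 libraries that stand apart edgeR called 210 members lower on day 10 and 234 on day 14, against 5.27% and 9.62% of all genes. DESeq2 called 123 and 214 members lower, against 4.08% and 7.54% of all genes, and limma-voom 256 and 241, against 11.9% and 12.8%.

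A library that the rule did not use was had by leaving out each in turn, choosing the genes anew on the other 15 and then reading them in the one left out. The reading is only in part independent, since it is set against values of other days on which the genes had just been chosen, which favours the outcome. With a day 14 library left out, 270 to 307 genes were chosen, and 76.2% to 96.7% of them were at most 0.5 times the day 5 value in the unused library. Among other genes with at least 5 CPM on day 5 the share was 3.86%, 6.96%, 4.93% and 4.75% for replicates 1 to 4. With a day 10 library left out the share was 68.3%, 73.1%, 93.4% and 88.2% in replicates 1 to 4, against 2.2%, 1.92%, 3.91% and 3.38% of other genes. Replicates 1 and 2 of day 10 were thus the least low of these 4 libraries, as they were for the median member. With a day 5 library left out, both later values were at most 0.5 times that library in 73.4% of genes for replicate 1, 66.2% for replicate 2 and 58.4% for replicate 4, against 2.35%, 1.26% and 1.78% of other genes. In day 5 replicate 3 it was 27.5%, or 93 of 338 genes, against 4.4% of other genes.

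Members on day 14 were, for the most part, slightly below their level on day 10. The day 14 value was the lower of both in 193 members, or 69.4%, against 50.2% of the other genes with at least 5 CPM on day 5. The fitted log2 difference between days 14 and 10 had a median of -0.25 over members and 0.03 over all genes tested. All 4 day 14 libraries lay below all 4 day 10 libraries in 28 members and above them in 3, where 4.51% and 2.91% of all genes tested did so. By edgeR 0 members were called, with adjusted p of 0.573 or more, as were 0% of all genes in either direction. At an unadjusted p under 0.05, 15 members were lower and 2 higher, against 3.36% and 2.45% of all genes. DESeq2 called 1 member lower and 1 higher, against 0.239% and 0.129% of all genes, and limma-voom called 0 members, against 0.349% lower and 0.159% higher. Without the 3 libraries that stand apart edgeR called 8 members lower and 1 higher, against 0.514% and 0.173% of all genes. The 2 members with the lowest day 18 values had the lowest such differences among those named, ENSBTAG00000035171 at -4.996 ± 1.86 and ENSBTAG00000055199 at -4.45 ± 1.79 in log2 units (SE), both with an adjusted p of 0.83 by edgeR.

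On day 18 the members did not move as a block. Replicate 1 was above 0.5 times the day 5 value in 38 of the 278 genes, replicate 4 in 85, replicate 2 in 145 and replicate 3 in 223, where 94.4%, 93.4%, 83% and 99.4% of the other genes of at least 5 CPM were. By the number of day 18 libraries above that level, 5 members had none, 132 had 1, 85 had 2, 35 had 3 and 21 had all 4. With a day 18 library left out and the genes chosen on the others, 86.0%, 47.8%, 18.4% and 69.4% were at most 0.5 times day 5 in replicates 1 to 4, against 5.65%, 17%, 0.677% and 6.61% of other genes. The share in replicate 1 lay within that of the day 14 libraries, and replicate 3 was the least low.

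Most of the members fell into 3 groups by which day 18 libraries were above 0.5 times the day 5 value, a sorting made after the values were seen. The largest held 118 genes above it in replicate 3 alone. The next held 44 genes above it in replicates 2 and 3, and the third 35 genes above it in replicates 2 and 4. The other 81 genes were spread over 10 further combinations. In the group of 118 the median log2 ratio was -2.50, -2.06, 0.15 and -2.45 in day 18 replicates 1 to 4. In the group of 35 it was -2.96, 3.03, -2.10 and 0.16.

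The groups of 118 and 35 also differed in day 5 replicate 3, a library of another day and another animal. Among the 118 genes it was the lowest day 5 library in 96 and at most 0.5 times the day 5 value in 87, with a median log2 ratio of -2.05. Over all 278 members this library was the lowest in 170 and at most 0.5 times the day 5 value in 145. Of the other genes of at least 5 CPM, 22.8% were at most 0.5 times the day 5 value in it. Among the 35 genes day 5 replicate 3 was the lowest in 0 and the highest in 21, with a median of 0.91, and replicate 4 was the lowest day 5 library in 32. The group of 44, high in replicate 2 as well as replicate 3, resembled the first, with day 5 replicate 3 the lowest in 34 and at most 0.5 times the day 5 value in 30, at a median of -1.44. The group of 35 also fell further by day 10, to a median of 0.106 times day 5 against 0.293 times in the group of 118. The day 14 medians were 0.142 times in the group of 35 and 0.197 times in the group of 118. With the genes chosen again without day 5 replicate 3, an alternative added after the data were seen, that library was at most 0.5 times the day 5 value in 116 of 142 genes of the first form and in 0 of 22 of the form high in replicates 2 and 4. It was above the day 5 value in 13 and 21 of them. Of 62 genes high in replicates 2 and 3, 45 were at most 0.5 times the day 5 value there and 8 above it. Other genes of at least 5 CPM with the same day 18 forms showed a like split, 195 of 296 and 0 of 10 at most 0.5 times day 5, with 49 of 98 for replicates 2 and 3, so it was not particular to the members. Over all 11702 other genes of that choice, day 5 replicate 3 was at most 0.5 times day 5 in 3137 and the lowest day 5 library in 7625.

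**Figure D3:**
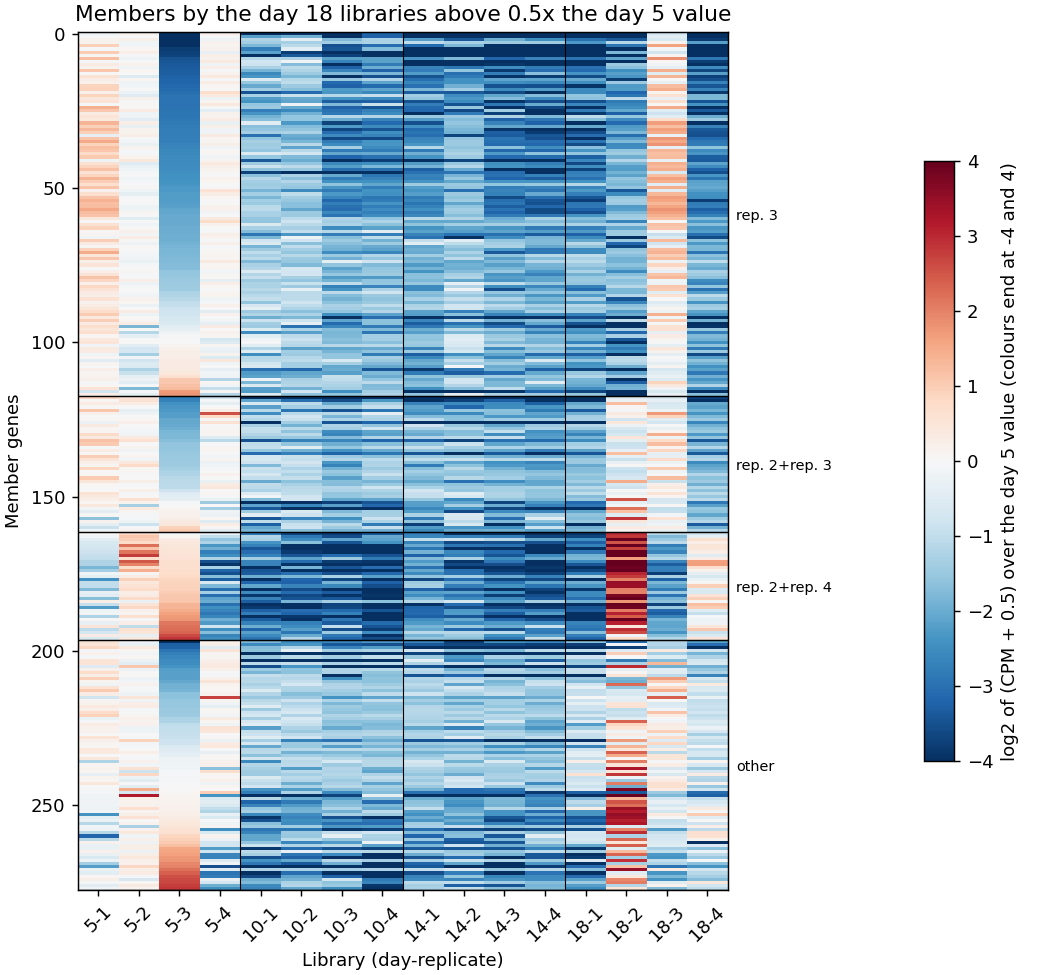
Log2 ratio of CPM plus 0.5 to the day 5 value for the 278 members (rows) in the 16 libraries (columns, day and replicate number), grouped by the day 18 replicates above 0.5 times the day 5 value and ordered within groups by day 5 replicate 3. Among the day 18 columns the upper group of 118 is red or pale in replicate 3 alone. In day 5 replicate 3 this group is mostly blue, and the group of 35 high in day 18 replicates 2 and 4 is pale to red.

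On day 18 the day 5 value was exceeded by 3, 99, 117 and 31 of the 278 members in replicates 1 to 4. Among the other genes of at least 5 CPM the shares above it were 59.3%, 36.0%, 59.4% and 57.3%. Members thus exceeded it no more often than the other genes in any replicate. In 17 members both replicates 2 and 3 were above it. In day 18 replicate 3, 55 members were at least 2 times their day 5 value, against 0.763% of the other genes, and it was the highest of all 16 libraries for 52 of them. These 55 were above the day 5 value in day 5 replicate 1 in 54 cases, with a median log2 ratio of 0.99, and at most 0.5 times it in day 5 replicate 3 in 53. In day 18 replicate 2, 72 members were at least 2 times their day 5 value, against 5.51% of the other genes, and 28 were at least 8 times, against 0.377%. No member was in both sets of 55 and 72. Of the 72, 65 were above the day 5 value in day 5 replicate 2 and 55 in day 5 replicate 3, while 36 were at most 0.5 times it in day 5 replicate 4. Of the other genes of at least 5 CPM, 40.7%, 71.6% and 26.1% were above the day 5 value in day 5 replicates 1, 2 and 3. At most 0.5 times it were 22.8% in day 5 replicate 3 and 0.678% in day 5 replicate 4. The sets were chosen by a day 18 library over the day 5 value, which is itself set by these day 5 libraries. The counts therefore describe the sets and carry no test.

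**Figure D4:**
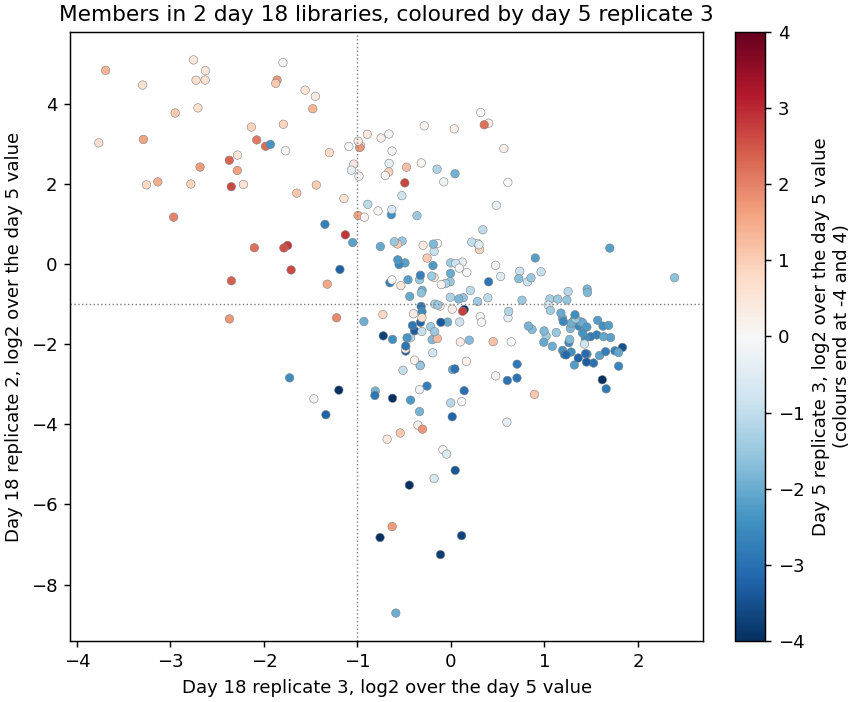
Each point is a member, placed by its log2 ratio to the day 5 value in day 18 replicate 3 (horizontal) and day 18 replicate 2 (vertical) and coloured by that ratio in day 5 replicate 3; dotted lines mark 0.5 times the day 5 value. Genes high in day 18 replicate 3 and low in replicate 2 are mostly blue, and those high in replicate 2 and low in replicate 3 are mostly red.

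A principal component analysis summarised the within-day differences of the members. After each day mean was removed from log2 CPM, the first 2 principal components held 78.4% of the squared deviations of members, 46.8% and 31.6%, against 58.6% for the other genes of at least 5 CPM. Day 18 replicates 2 and 3 accounted for 20.4% and 19.97% of the members' squared deviations, day 5 replicate 3 for 15.1% and day 18 replicate 1 for 13.0%. For the other genes of at least 5 CPM the same libraries, in that order, accounted for 18.4%, 9.77%, 21.7% and 5.73%. Day 5 replicate 3 thus held a smaller part for members than for other genes. On the first component day 18 replicate 3 and day 5 replicates 1 and 4 lay on one side, and day 5 replicate 3 and day 18 replicates 2 and 4 on the other, so the forms high in replicate 3 and high in replicates 2 and 4 are its opposite ends. The second set day 18 replicate 1, at a loading of -0.62, against replicates 2 and 3, at 0.58 and 0.22.

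Day 18 against the low days was not a contrast of the rule, but days 10 and 14 had been chosen low on the same libraries, which favours higher values on day 18. The median log2 difference over members was 1.47 for day 18 minus day 10 and 1.86 for day 18 minus day 14, against 0.05 and 0.03 over all genes tested. Higher fitted values on day 18 were found in 255 and 271 of the 278 genes, against 55.1% and 52.8% of all genes tested. All 4 day 18 libraries lay above all 4 day 10 libraries in 32 members and above all 4 day 14 libraries in 39, against 3.4% and 2.6% of all genes. No member passed the adjusted test with edgeR in either comparison, where 0.0245% and 0% of all genes were called higher. At an unadjusted p under 0.05, 110 and 162 members were higher, against 9.82% and 8.08% of all genes, and 0 were lower, against 4.79% and 3.29%. DESeq2 called 73 and 79 members higher, against 3.09% and 1.36% of all genes, and limma-voom called 0 in both, against 0.0306% and 0%. For ENSBTAG00000001292 the day 18 minus day 14 difference was 6.01 ± 1.53 in log2 units (SE), with an adjusted p of 0.270 by edgeR, and of the 4 day 18 libraries replicate 1 was below all those of day 14.

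These differences depended on the libraries that stand apart. Without day 18 replicate 3 the median of day 18 minus day 10 was 0.36 and that of day 18 minus day 14 was 0.63. Without all 3 libraries they were -0.14 and 0.11, so the first turned sign, and edgeR called 9 members lower and 6 higher on day 18 than on day 10, against 1.09% and 0.706% of all genes. Only day 18 replicates 1 and 4 then remain for day 18. Day 18 replicate 3 was set apart for its closeness to day 5, so leaving it out favours lower day 18 values.

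Against day 5, the day 18 value was at most 0.5 times in 169 members and above it in 17. The median fitted log2 difference was -0.50, against 0.02 over all genes tested. By edgeR 0 members and 0% of all genes were called in either direction. At an unadjusted p under 0.05, 51 members were lower and 3 higher, against 5.55% and 8.1% of all genes. DESeq2 called 6 members lower, against 0.306% of all genes, and limma-voom called 0 members and 0% of all genes. Without day 18 replicate 3 edgeR called 69 members lower, against 2.66% of all genes, with a median of -1.37. Without all 3 libraries it called 178 lower, against 7.38% of all genes, and the median was -1.93, as was that of day 10 against day 5 in the same fit. The choice of genes as high on day 5 favours a lower day 18. So does leaving out day 18 replicate 3, which was set apart for its closeness to day 5. These counts are therefore set beside their background and no more is read from them.

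Reads on the strand opposite to the counted one made up a median of 0.168% of a member's stranded reads, against 0.165% for the other genes of at least 5 CPM. They were over 10% in 9 members, against 3.26% of the others, and 10 members had an unstranded count more than 10% away from the stranded one, against 3.73% of the others. For such genes an overlapping gene on the other strand may share reads, and their values are less certain. With unstranded counts 271 of the 278 genes were chosen again.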

How the data were processed

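For each library the authors deposited raw counts of reads per gene, with no scaling, laid out as STAR writes them. The submitters' processing notes name FastQC, STAR and edgeR. For versions, build and annotation: not given in the sources used here. Column 4, the strand that holds nearly all stranded reads, was used, and 4 summary lines that name no gene were dropped. Reads without a gene feature were 23.1% to 33.4%. They numbered 5780847 to 7422320 in the day 5 libraries and day 18 replicates 2 and 3, and 8066099 to 9684680 in all others. The libraries with fewer such reads are also those with the highest member medians. Whether this trait bears on the member values was not tested. The summary line for reads mapping to several places is 0, so genes with near-identical copies are uncertain.

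Members were taken from CPM by column sum, with a pseudocount of 0.5. Members, groupings and tests were chosen with earlier results of these data known. The 16331 genes that passed filterByExpr went into 1 robust quasi-likelihood fit (edgeR) of all 4 days, on TMM scaling. Calls needed a Benjamini-Hochberg adjusted p under 0.05. The fit was tested on simulated data. The SE is the log2 fold change divided by the square root of F. Alternatives were RLE scaling, no filter, unstranded counts, DESeq2, limma-voom with library weights, a replicate block, leaving out each library, and leaving out 3. Names were to be the most abundant, most fallen and extreme day 18 members, with 2 IDs per group as no symbol was available. The gene lists and cell type markers fixed for use by symbol could not be applied. All pairs of libraries within a day differed by more than sampling noise (smallest chi-square per degree of freedom 36.7). Same-numbered libraries of days 5 and 10 deviated together across genes, at correlations of 0.12 to 0.35 in all 4 pairs, and not in every pair for the other days. The labels name separate animals per day but no shared animal for a number. Versions were edgeR 4.0.16, DESeq2 1.42.0 and limma 3.58.1 in R 4.3.3, and pandas 2.3.3, NumPy 2.4.6 and Matplotlib 3.10.9 in Python 3.11.15.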

Additional observations from a re-analysis of the deposited data

Results flagged for a closer look

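In 7 of 40 groups of 4 libraries examined, 1 library was far outside the range of that day's other 3. For independent groups chance alone would give about 1 in 20, or 2. These groups share libraries, and the named genes were picked for extreme values, so that rate cannot be applied to them. The rule also admits 1 low library on day 5. In day 5 replicate 3 the median member lay at a log2 ratio of -1.16 to the day 5 value, against -0.02 to 0.16 in the others. The same library was low for ENSBTAG00000052405, at 1.54 on the log2(CPM + 0.5) scale against 4.17 to 4.44, for ENSBTAG00000035171, at 1.71 against 7.78 to 8.31, and for ENSBTAG00000055199, at 2.45 against 6.18 to 6.43. In day 14 replicate 2 the members took 1.59% of gene reads, against 0.710% to 0.750% in the others, and ENSBTAG00000013103 was at 13.27 on that log2 scale against 11.13 to 11.35. Without the 2 most abundant members the share was 0.582%, against 0.433% to 0.489%, so these 2 flags are not separate. In day 18 replicate 3 ENSBTAG00000055199 was at 6.14, against -1 to -0.72.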

How the results depend on the processing

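The number of members was 259 to 339 with 1 library left out, 340 without the 3 libraries that stand apart (253 of the 278 among them), 93 with a limit of 0.25 times day 5, and within 1.5 times of 278 in the other 5 alternatives. A like number does not mean the same genes. With means as day values 248 genes were chosen, 207 of the 278 among them. With 1 day 5 library left out, 238 to 251 of the 278 were kept. The share of re-chosen genes that were low in an unused library of days 10 and 14 had a median of 88.8%, and a limit of 0.25 times moved it by less than its SD over those libraries. Calls among the 278 depended on tool and library. For day 10 against day 5, DESeq2 called 123, limma-voom 256, edgeR with the replicate block 0 and edgeR without the 3 libraries 210, and with 1 library left out 0 to 47. For day 14 against day 5 these were 214, 241, 0 and 234, with 7 when low counts were not filtered and 0 to 152 with 1 library left out. For day 18 against day 5, DESeq2 called 6, edgeR without the 3 libraries 178 and with 1 left out 0 to 69. For day 14 against day 10 these were 2, 9 and 0 to 0, for day 18 against day 10 they were 73, 15 and 0 to 29, and for day 18 against day 14 they were 79, 0 and 0 to 0. For day 14 against day 5, edgeR called 0 without any 1 library of day 14, of day 5 other than replicate 3 or of day 10 other than replicate 3, 6 if day 10 replicate 3 was left out and 90 if day 5 replicate 3 was. Over all genes, 25 and 457 were called lower in the last 2 of these fits, against 183 in the main fit. Leaving out day 18 replicates 1 to 4 in turn gave 83, 140, 152 and 87 members. Over all genes 391, 699, 725 and 420 were then called lower, so calls rose beyond the members too. For day 10 against day 5 edgeR called 0 without any 1 day 10 library or day 5 replicate 1, 2 or 4, and 1 or 2 when a day 14 library was left out. It called 5 when this was day 5 replicate 3, and 8, 47 and 15 when it was one of day 18 replicates 1 to 3. Over all genes 7, 16, 140 and 43 were called lower in these last fits, against 7 in the main fit. For day 18 against day 10 edgeR called 9, 29 and 1 without day 18 replicates 1, 3 and 4 and 1 when day 5 replicate 3 was left out. Over all genes these fits called 36, 252, 5 and 47 in either direction, against 16 in the main fit. The replicate block changed no call in the last 4 comparisons. RLE scaling and unstranded counts kept all 6 counts within 1.5 times. The cause was not tested. The least covered of the 278 genes had 587 reads over the 16 libraries, and whether depth limits the calls was not tested.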
